A study of Mus musculus with 2 samples.

Results

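The miR-378 family is a small group of microRNAs (miRNAs, short RNAs that hold down the translation and stability of target mRNAs) whose best known member, miR-378a, is cut from an intron of Ppargc1b. That gene encodes PGC-1β, a coactivator that drives mitochondrial and lipid oxidation genes. The members studied here were the 5 probes named mmu-miR-378a-3p, mmu-miR-378a-5p, mmu-miR-378b, mmu-miR-378c and mmu-miR-378d, of 1900 miRNA probes on each array. They were matched by name, but the family itself was chosen by its difference between the arrays, since several members were among the lowest miRNAs on high-fat diet. The values of that comparison are therefore a description, with no test.

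One array was hybridised with RNA from mice on a high-fat diet and 1 with RNA from mice on a normal diet. The high-fat feed supplied 60% of its kcal as fat and the normal feed held 5% fat. All animals were male C57BL/6J mice, a wild-type inbred strain, which entered the diets at 8 weeks of age and stayed on them for 8 weeks. The tissue was epididymal fat, a white fat depot beside the testis, and the labels do not give the number of animals behind each array. With 1 array per diet there are no replicates, and no p-value or error across animals can be given. The arrays took separate positions on 1 slide, and an effect of position and one of diet cannot be told apart.

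In fat, miR-378a is known as a miRNA that comes up as preadipocytes turn into adipocytes, together with its host gene. Its 2 arms, named 3p and 5p, are the opposite strands of 1 hairpin. In mice, the locus has been tied to lipid storage, to mitochondrial oxidation through targets such as Crat (carnitine acetyltransferase) and Med13 (a Mediator subunit), and to brown fat. Less is known of miR-378b, miR-378c and miR-378d, which come from other loci.

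The sequences below show how alike these miRNAs are, since a hybridisation probe reads a target by its sequence. Of the 5 members, 3 matched an entry of the RefSeq miRNA table (build GRCm38.p6). Each is written 5′ to 3′ with its seed, bases 2 to 8, in capitals.
mmu-miR-378b: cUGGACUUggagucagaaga
mmu-miR-378c: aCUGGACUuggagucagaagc
mmu-miR-378d: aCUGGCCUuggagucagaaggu

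miR-378b lies at chr11:88352839-88352858 on the plus strand, within the span of Msi2, which encodes an RNA-binding protein. miR-378c lies at chr14:46954905-46954925 on the minus strand, within the span of Samd4, another RNA-binding protein gene, and of the predicted gene Gm52120. miR-378d lies at chr10:126710355-126710376 on the minus strand and overlaps no other gene of that annotation. Positions below count from 1 at the 5′ end of miR-378c, whose base comes first. miR-378b starts at position 2 of miR-378c and matches it in 19 of 20 bases, with the change C21A at its end. miR-378d matches it in 19 of 21 bases, with the changes A6C and C21G.

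The start of miR-378b 1 base later moves its seed to UGGACUU, against CUGGACU in miR-378c and CUGGCCU in miR-378d. No seed was shared with another of the 1738 mature entries. These entries hold neither arm of miR-378a, so a seed shared with miR-378a could not be found. Over their whole length the molecules are close: miR-378b and miR-378c share 19 bases in a row, and miR-378c and miR-378d share 14. Among 1611 other miRNAs with a probe of their own and an entry in the table, none shared 9 or more bases in a row with any of them, and 13 shared 8. Whether the family's probes bind one another's targets was not tested, and their signals were not read as independent measurements. By the same RefSeq annotation the gene of miR-378a lies within Ppargc1b.

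All 5 members gave less signal on the high-fat array. The samples are labelled as fat tissue, although the extraction protocol speaks of cells. In such bulk RNA, fewer cells of a type and less of a miRNA per cell cannot be told apart. The net signal, in intensity units, is what a spot's median has above the blank spots' trimmed mean, and is given first because it involves no scaling and no offset. For miR-378a-3p it was 98.4 on the high-fat array, against 375 on the normal-diet array. For miR-378a-5p, the dim opposite arm, it was 8.29 on the high-fat array, against 24.9 on the normal-diet array. Both arms of the hairpin were thus lower on high-fat diet.

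The related probes lay close together. miR-378b gave 60.7 on the high-fat array, against 237 on the normal-diet array. miR-378c gave 59.1 on the high-fat array, against 212 on the normal-diet array. miR-378d gave 61.0 on the high-fat array, against 222 on the normal-diet array. Every member was above the detection limit on both arrays, also with the limit raised from 2 to 3 SD of the blanks. The dimmest value, miR-378a-5p on the high-fat array, stood 10.5 blank SDs above the blank mean.

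**Figure D1:**
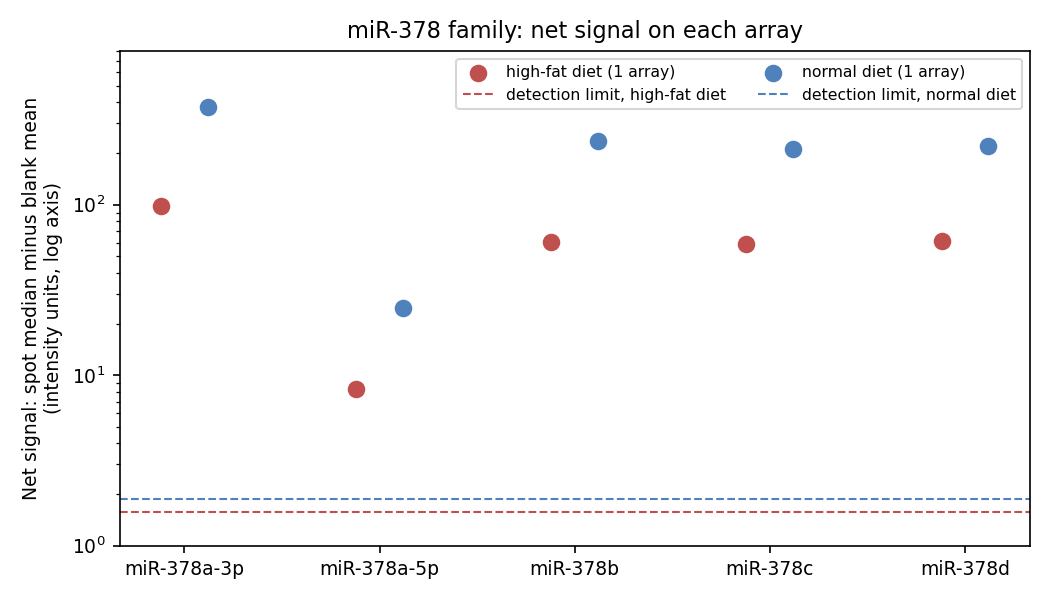
Net signal of the 5 miR-378 family probes on the high-fat array (red) and the normal-diet array (blue), 1 spot per array, on a log axis. The dashed lines are the detection limits, the blank mean plus 2 SD. The high-fat point lies below the normal-diet point for all 5 probes, at 8.29 to 98.4 against 24.9 to 375.

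As a ratio of net signals, high-fat over normal diet, the 5 probes spanned a narrow range. The ratio was 0.257 for miR-378b, 0.263 for miR-378a-3p, 0.275 for miR-378d, 0.278 for miR-378c and 0.333 for miR-378a-5p. The noise of the blank spots alone gives these ratios an error of 0.00222 to 0.00393 for the 4 probes other than miR-378a-5p and of 0.0342 for miR-378a-5p (1 SD). On the high-fat array miR-378a-3p, miR-378b, miR-378c and miR-378d were thus lower by 3.60-fold to 3.90-fold, and miR-378a-5p by 3.00-fold. The ratios of these 4 spread over 0.12 on the log2 scale, which is within the error of repeated spots: 5 bright control probes with 8 spots each had single-spot log2 ratios with an SD of 0.12 to 0.19. The ratio of miR-378a-5p was 0.34 above that of miR-378a-3p on the log2 scale. Blank noise contributes an SD of 0.15 to it, besides the spot error. The spot error just given comes from bright controls and was not measured at a signal as dim as that of miR-378a-5p.

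By net signal most miRNAs did not go this way. Over the 1339 miRNAs detected on both arrays the median ratio of net signals was 1.20, and a ratio of at most 1/2 was found for 20 of them (1.49%), all 5 members among them. Of the 670 at or above the median signal, 12 (1.79%) had such a ratio. In order from the lowest ratio of the 1339, miR-378b was number 4, miR-378a-3p number 5, miR-378d number 6, miR-378c number 7 and miR-378a-5p number 10.

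Probes of like signal were set beside the family. On the normal-diet array 41 other miRNAs had a net signal between those of miR-378c and miR-378a-3p. Their median ratio was 1.02, and 0 of them had a ratio as low as the highest of the 4 members other than miR-378a-5p. The window was set by the members' own signals. It leaves out miR-144-3p, at 400 on the normal-diet array with a ratio of 0.175. For the dim miR-378a-5p, 206 miRNAs lay within 1.5-fold of its net signal on the normal-diet array. Their median ratio was 1.14, and 1 was as low as miR-378a-5p. Because the family was chosen for its low values, these counts describe it and do not test it.

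Ranks, which no scaling to a common level can change, showed the same shift. By spot intensity among the 1900 probes, miR-378a-3p was number 243 on the high-fat array and number 92 on the normal-diet array. miR-378d was number 327 on the high-fat array and number 132 on the normal-diet array. miR-378b was number 330 on the high-fat array and number 125 on the normal-diet array. miR-378c was number 338 on the high-fat array and number 136 on the normal-diet array. miR-378a-5p moved furthest in places, to number 1068 on the high-fat array, against number 461 on the normal-diet array, in a range of intensity that holds many dim probes.

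For comparison with the other miRNAs, spot medians were corrected with the normexp method with an offset of 50 and put on a common scale by quantile normalisation. On this scale miR-378a-3p had an intensity of 143 on the high-fat array and 452 on the normal-diet array, a log2 difference (high-fat minus normal diet) of -1.66. miR-378b had 109 on the high-fat array and 308 on the normal-diet array, a difference of -1.49. miR-378d and miR-378c differed by -1.39 and -1.38. miR-378a-5p had 60.8 on the high-fat array and 83.1 on the normal-diet array, a difference of -0.45. Most of its value on either array is the offset, and with an offset of 16 its difference was -0.88.

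In this order the gap between miR-378a-3p and miR-378b was 0.17, between miR-378b and miR-378d 0.10, and between miR-378d and miR-378c 0.01. Repeated control spots had an SD of 0.10 to 0.18 on this log2 scale, so no neighbours among these 4 were told apart. A difference of at least 2-fold toward lower signal was found for 10 of the 1339 miRNAs (0.747%), and 4 of these 10 were family members, all but miR-378a-5p. The median of the 5 members was -1.39, against -0.04 for all 1339. In order from the lowest difference, miR-378a-3p was number 3, miR-378b number 4, miR-378d number 7, miR-378c number 8 and miR-378a-5p number 61.

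**Figure D2:**
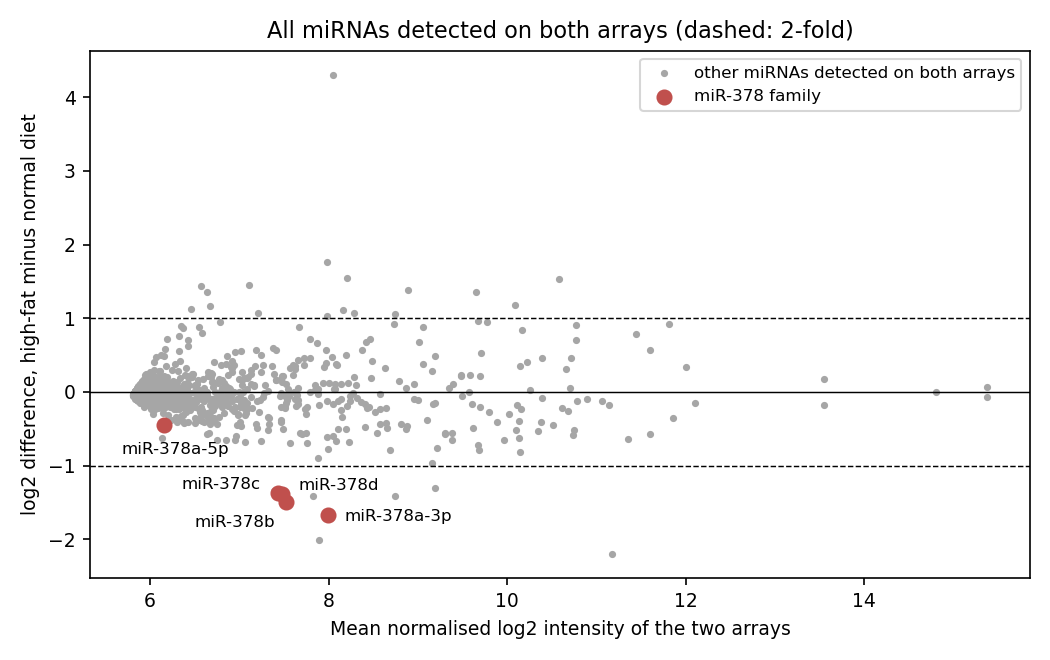
The log2 difference (high-fat minus normal diet, vertical axis) against the mean normalised log2 intensity (horizontal axis) for the 1339 miRNAs detected on both arrays, 1 point each. The dashed lines mark 2-fold. The family members are red, of which 4 lie between -1.38 and -1.66, and miR-378a-5p lies at -0.45 among dim miRNAs.

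The scaling set the size of the difference but not its sign. The 5 members were lower without scaling and under quantile, cyclic loess, median, 75th percentile and spike-control scaling. The 5 bright control probes were themselves dimmer on the high-fat array, with net ratios of 0.727 to 0.835 (spike controls 0.797 and 0.806). Scaling to the spike controls therefore moved the median of all 1339 miRNAs to 0.35. There miR-378a-3p was at -1.18, miR-378b at -1.03, miR-378d at -0.95, miR-378c at -0.92 and miR-378a-5p at -0.04. In the authors' deposited values, miR-378a-3p was 153 on the high-fat array and 696 on the normal-diet array, a log2 difference of -2.18. The other members differed in the authors' deposited values by -2.22 (miR-378b), -2.12 (miR-378d), -2.10 (miR-378c) and -1.84 (miR-378a-5p).

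**Figure D3:**
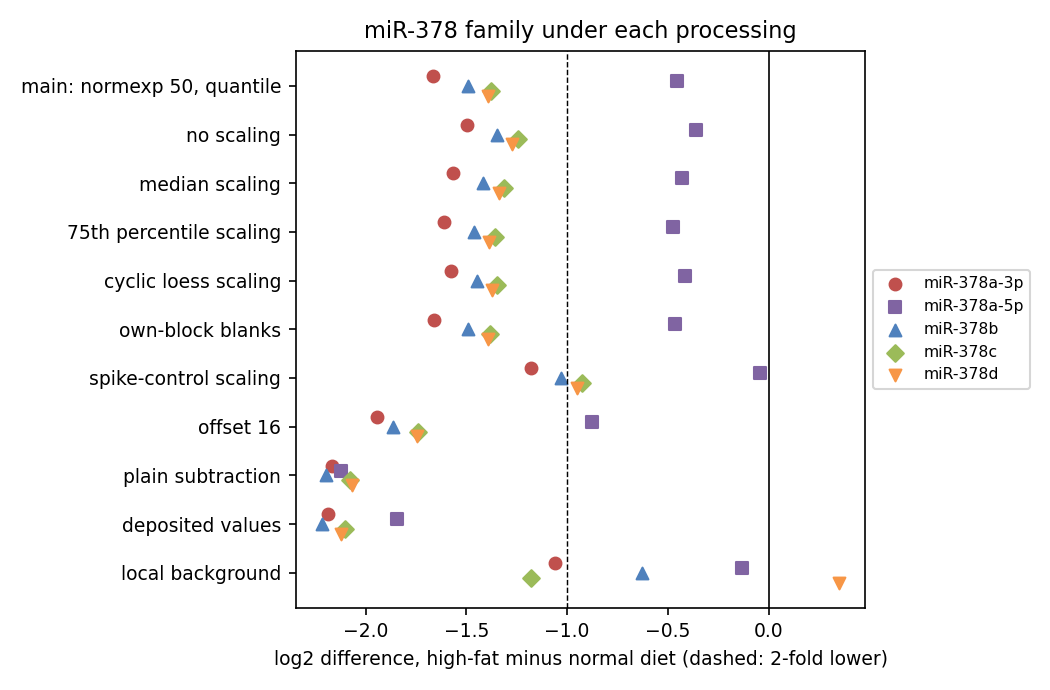
The log2 difference of each family member (high-fat minus normal diet, horizontal axis) under the processing used here (top row) and 10 alternatives. The solid line marks no difference and the dashed line 2-fold lower. The points lie left of the solid line everywhere except miR-378d with the local background, at 0.35.

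The background was the choice that changed a sign. Each spot also has a local background reading in the files, and it was high where the spot was bright: its excess over the blank mean was a median of 0.560 of the net signal over 240 bright spots on the high-fat array and 0.558 over 219 on the normal-diet array. The probe of miR-378d was an extreme case. On the high-fat array its spot read 130 and its local background 100.3, and on the normal-diet array its spot read 298 and its local background 294. Subtracting the local reading leaves 30.02 units on the high-fat array and 3.36 on the normal-diet array, which turned the difference of miR-378d to 0.35. For miR-378c the normal-diet local background was only 144 beside a spot of 288, and its difference with the local background was -1.18. With the local background miR-378a-3p was at -1.06, miR-378b at -0.63 and miR-378a-5p at -0.13.

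Blank levels in the members' own blocks changed the ratios little. The 5 probes sit in blocks 4, 5, 11, 19 and 25 of the array, with 28 blank spots in each block. The blanks of these blocks averaged 68.7 to 70.0 on the high-fat array and 74.9 to 76.5 on the normal-diet array. Taken over their own block's blanks, the ratios of net signals were 0.264 for miR-378a-3p, 0.256 for miR-378b, 0.278 for miR-378c, 0.274 for miR-378d and 0.307 for miR-378a-5p.

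**Figure D4:**
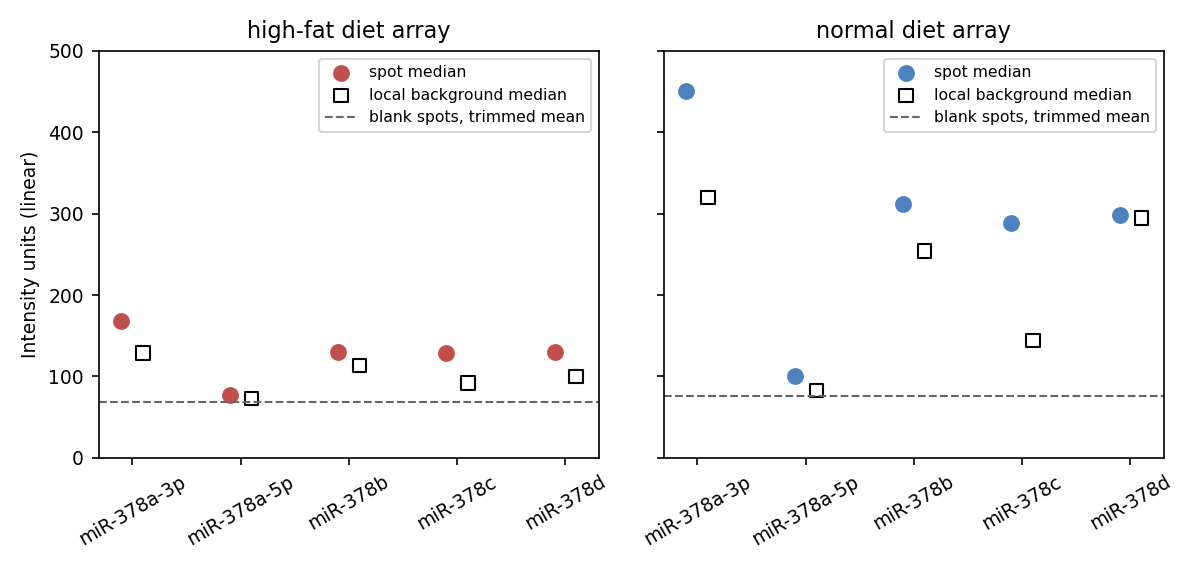
Spot median (filled) and local background median (open squares) of the 5 family probes, in linear intensity units, on the high-fat array (left) and the normal-diet array (right). The dashed line is the trimmed mean of the blank spots. On the normal-diet array the local background of miR-378d, at 294, almost equals its spot, at 298.

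The miRNAs whose log2 difference was closest to that of miR-378a-3p, among those at or above the median signal and over these 2 arrays, were, in order of closeness, miR-193b-3p (-1.42), then miR-193a-3p (-1.41), miR-150-5p (-1.35, but 0.34 with the local background), miR-144-3p (-2.004) and miR-365-3p (-1.30). miR-193b and miR-365 share a cluster induced during brown fat differentiation, miR-150 is a lymphocyte miRNA, and miR-144 belongs to red cells. By distance over the log2 values of both arrays the nearest were miR-144-3p (0.28), miR-193b-3p (0.29), miR-223-3p (0.57), miR-145b (0.63) and miR-7090-5p (0.71). Of the first 5, miR-193a-3p is also among the 13 miRNAs that share 8 bases in a row with a family member. Of these 13, miR-7672-5p had the most identical bases in the best alignment without gaps, 12. This miRNA went the other way, with a net signal of 175 on the high-fat array and 115 on the normal-diet array. These sequence look-alikes were picked after the values had been seen, by sequence alone.

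Other miRNAs of fat cell biology were taken from 3 lists, whose counts stand beside a background of 862 lower among all 1339 detected miRNAs (64.4%, median -0.04). Of 20 adipocyte differentiation miRNAs, 16 were lower and 4 higher on the high-fat array, with a median of -0.62 and 2 past 2-fold lower. Besides miR-193b-3p and miR-365-3p, miR-30a-5p, of a family that promotes adipogenesis in human cells, was at -0.81 (1.32 with the local background), and miR-335-5p, from an intron of Mest, was at 1.76 (0.13 with the local background). miR-378a-3p, at -1.66, lay below all 20, but with the local background miR-365-3p (-1.91) lay below miR-378a-3p (-1.06). With spike-control scaling 14 of the 20 were lower, and with the local background 11.

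Of 18 detected miRNAs tied to thermogenic or oxidative fat, 14 were lower and 4 higher, with a median of -0.21. Past 2-fold lower were 3 of them, miR-365-3p and both miR-193 members, miR-193a-3p and miR-193b-3p. With the local background miR-193a-3p was at -2.43 and miR-193b-3p at -0.73, short of 2-fold. miR-34a-5p, which restrains fat browning in mice, was at 1.03 (0.20 with the local background). With spike-control scaling 8 of the 18 were lower and the median was 0.26, and with the local background 10 were lower and the median was -0.00347. Of the 3, miR-193a-3p (-1.10) was still past 2-fold lower with spike-control scaling, and in the family miR-378a-3p and miR-378b were.

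The third list held miRNAs that, like miR-378a, lie inside protein genes, some of them of metabolism or muscle. Its muscle markers miR-208a-3p, miR-208b-3p and miR-499-5p were detected on neither array. Of the list's 24 detected members 18 were lower and 6 higher, with a median of -0.13. Past 2-fold lower were 0, beside 10 of all 1339 (0.747%). Past 2-fold higher was 1, miR-335-5p, at 1.76 (0.13 with the local background), beside 17 of all 1339. miR-107-3p (-0.78) and miR-103-3p (-0.72), from introns of the pantothenate kinase genes that start coenzyme A synthesis, and miR-126a-5p (-0.76), from Egfl7, were the lowest. With spike-control scaling 7 of the 24 were lower and the median was 0.29, where the median of all 1339 was 0.35. With the local background 14 of the 24 were lower and miR-126a-5p was at 0.08. The lists overlap, and their members were compiled with earlier results of these data known.

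**Figure D5:**
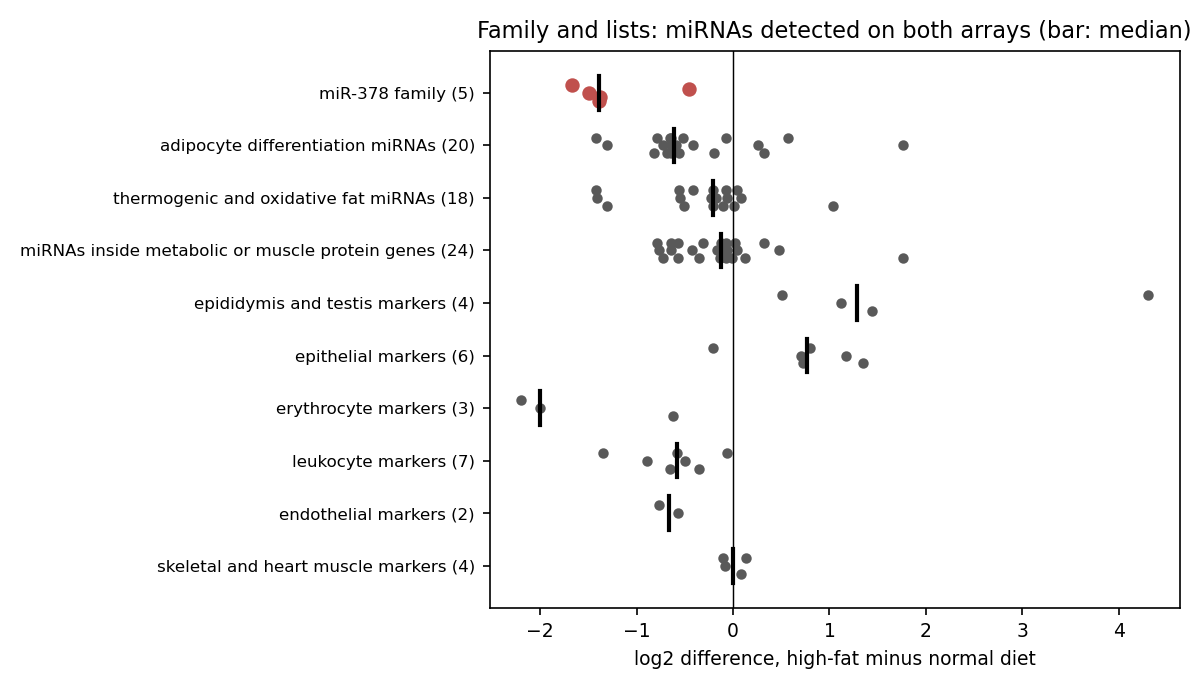
The log2 difference (high-fat minus normal diet) of the 5 family members (red) and of each list's miRNAs detected on both arrays (grey), with the number of points in brackets and the median as a bar. The family median is -1.39. The median of the 3 erythrocyte markers is lower, at -2.004, although miR-144-5p is at -0.63. The median of the epididymis and testis markers is 1.28.

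Markers of other cells moved between the same arrays. No single miRNA defines adipocytes, so the label of the tissue was checked only through what else it held. The 14 epididymis and testis markers had a summed net signal of 3276 on the high-fat array and 17.0 on the normal-diet array, with 4 detected on both arrays and 10 on the high-fat array only. Of all 1900 probes, 1510 were detected on the high-fat array, 1370 on the normal-diet array and 1339 on both. The 7 epithelial markers summed to 484 on the high-fat array and 129 on the normal-diet array, and 5 of the 6 detected on both were higher. Among all miRNAs detected on both, 64.4% were lower. Both lists thus gave more signal on the high-fat array.

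Blood cell markers went the other way. The 3 erythrocyte markers summed to 1050.3 on the high-fat array and 5534 on the normal-diet array, and all 3 were lower (median -2.004). The 7 leukocyte markers summed to 564 on the high-fat array and 999 on the normal-diet array. On the log2 scale all 7 were lower (median -0.58), beside 64.4% of all 1339 detected miRNAs. By net signal miR-155-5p was not lower, at 5.07 on the high-fat array and 4.96 on the normal-diet array. With spike-control scaling 5 of the 7 were lower, where the median of all 1339 was 0.35. With the local background 4 were lower, where the median of all 1339 was -0.00523. Both endothelial markers were lower (median -0.67, but 1.28 with the local background). The part of these shifts in the difference of miR-378 was not tested.

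Muscle, where miR-378a is also abundant, left little trace. Of 7 muscle markers, miR-208a-3p, miR-208b-3p and miR-499-5p were detected on neither array. The other 4 were dim, and the whole list summed to 82.2 on the high-fat array and 57.0 on the normal-diet array. Their median difference was -0.00185, and it was above 0 under several scalings. Of the 2 liver markers, miR-122-3p was detected on neither array, and miR-122-5p, with net signals of 1.14 on the high-fat array and 2.01 on the normal-diet array, passed the limit on the normal-diet array.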

How the data were processed

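Total RNA was labelled with Cy5 and hybridised to 1-colour 3D-Gene arrays, per the labels' protocols. Per the file headers, the deposited scanner files give spot and local background median intensity at 635 nm, merged from 3 gains. The processed intensity that the authors deposited beside them equals spot median minus blank mean, times 1 factor per array (1.56 high-fat, 1.86 normal diet; largest deviation 3e-06); its scale is linear and uncentred, its direction follows from the labels, and its median listed value is 25 in both columns. A value was listed exactly where the spot passed the detection limit used here, for 1900 of 1900 probes.

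Computed here, with R 4.3.3 and limma 3.58.1: trimmed mean and SD of 896 blank spots (5% off each end; 69.2 and 0.793 on the high-fat array, 75.6 and 0.934 on the normal-diet array), detection above mean plus 2 SD (1510 and 1370 probes), normexp with offset 50 against the blank mean, quantile scaling, log2. The arrays' number, 1 per diet, limits precision. Named miRNAs are the members, the 2 to 4 furthest from 0 in each of the 3 fat cell lists, and the 5 nearest to miR-378a-3p by each measure. Any that share a member's seed were also to be named (none of the entries did, and they lack miR-378a). miR-7672-5p, miR-155-5p and the named muscle and liver markers fall outside this rule and were chosen after their values were seen. Members, lists and settings were chosen with earlier results of these data known. Alternatives were 3 other backgrounds or offsets, 5 other scalings, the deposited values, and blanks of the member's own block, added after seeing the data.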

Additional observations from a re-analysis of the deposited data

How the results depend on the processing

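No paired analysis was possible because each diet has 1 array, and no replicate could be left out. In the order miR-378a-3p, miR-378a-5p, miR-378b, miR-378c and miR-378d, the log2 differences were -1.66, -0.45, -1.49, -1.38 and -1.39. They were -1.06, -0.13, -0.63, -1.18 and 0.35 with the local background, whose reading near miR-378d almost equals the spot. They were -2.17, -2.12, -2.20, -2.08 and -2.07 by plain subtraction, -1.95, -0.88, -1.86, -1.74 and -1.74 with offset 16, -1.18, -0.041, -1.03, -0.92 and -0.95 with spike-control scaling, and -2.18, -1.84, -2.22, -2.10 and -2.12 in the authors' deposited values. Under the other scalings and the own-block blanks each moved by less than 0.18, the largest SD of a single-spot difference among the controls. The 10 miRNAs at least 2-fold lower became 5 with spike-control scaling, 18 with the local background, 62 in the authors' deposited values and 107 by plain subtraction. List medians that changed sign were those of thermogenic fat (0.26) and of miRNAs inside protein genes (0.29) with spike-control scaling, endothelial markers (1.28) with the local background, and muscle markers (0.00555 with the local background, 0.0318 with median, 0.0369 with cyclic loess, 0.10 with no and 0.42 with spike-control scaling, 0.12 in the authors' deposited values, 0.079 over members at or above the median signal). Dim signal limits miR-378a-5p most: its high-fat value is 8.29 units above the blanks.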
